A study of Mus musculus with 24 samples.

Results

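The 10 genes described here encode enzymes and regulators of the response to low oxygen and of glycolysis, and were measured in 24 mammary tumors of female BALB/c mice. The members, chosen by name, were Hif1a, Slc2a1, Hk2, Aldoa, Pgk1, Eno1, Pkm2, Ldha, Pdk1 and Car9, which the arrays carry on 13 probes, out of 30119 genes and 39429 probes in all. Of the 13 probes, 11 passed the filter on signal (in each channel over 10 on no fewer than 80% of arrays), and each of the 10 genes kept at least 1. Every mouse had received the carcinogen DMBA by oral gavage, 50 mg/kg once a week in 4 doses from 5 weeks of age. Mice were placed on a low-fat diet (LFD) or a high-fat diet rich in saturated fat (HFD) at 3 weeks of age, and some were switched at 9 weeks, from HFD to LFD (HFD-LFD) or from LFD to HFD (LFD-HFD). The onset label of a tumor is early or late. The groups were LFD late (5 tumors), LFD-HFD late (4), HFD late (6), HFD-LFD late (3), HFD early (3) and HFD-LFD early (3), so that no early tumor came from a mouse on LFD or LFD-HFD. The labels do not say whether any tumors share a mouse, and p-values measure the spread between tumors only.

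Cells break glucose down to pyruvate by glycolysis, and when oxygen is short they turn pyruvate into lactate instead of burning it in mitochondria. Hypoxia-inducible factor 1 (HIF-1) is the transcription factor that sets this switch. Its alpha subunit is destroyed in the presence of oxygen and is controlled mainly at the level of the protein, so that the level of Hif1a mRNA is a poor guide to its activity. When stabilized, it pairs with a beta subunit (Arnt) and binds a short motif with the core ACGTG or GCGTG near its target genes, among them genes for glucose transport, for most glycolytic steps and for carbonic anhydrase 9. Many tumors, including those of the breast, run glycolysis at a high rate.

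Each tumor was hybridized on its own 2-color array against 1 common reference RNA from 11 mouse cell lines, so a level below is the log2 ratio of tumor over reference and says how much more or less of the same transcript the tumor held. The study's methods place the reference in cyanine 5, whereas the labels place the tumor there. Cyanine 5 varied more from array to array (median SD 0.614 on the log2 scale over 27183 probes) than cyanine 3 did (0.269), and since the reference was the same on every array the ratio was taken as cyanine 5 over cyanine 3, opposite to the direction the methods state. The chosen probe of each of the 10 genes was well above background in both channels on 24 arrays and saturated on none. On 7 arrays, all of late tumors (slides 6 and 7), 18.3% to 22.6% of spots lay in rows where cyanine 5 signal was lost, and these spots were treated as missing, which left 18 to 24 tumors with a value per gene. The 3 HFD early tumors filled slide 2 and the 3 HFD-LFD early tumors shared slide 4 with 1 late tumor. Scan session 1 held the 3 HFD early and 8 late tumors, and session 2 the 3 HFD-LFD early and 3 late tumors. In session 3 there were 7 late tumors and no early ones. Between the early tumors of HFD and HFD-LFD, diet thus cannot be told apart from slide and scan session. Luminal keratins marked most samples as epithelial (Krt8 from -0.90 to 3.60 on 21 arrays), but 1 HFD late tumor, MSU_86, stood apart with Krt8 at -4.74, Krt18 at -4.10 and Krt19 at -4.37. Its Epcam, Foxa1 and Elf5 were also below those of all other tumors. Other luminal markers of MSU_86, Gata3 (1.98), Prlr (1.45) and Esr1 (0.81), lay within the range of the other tumors. The mean level of the squamous markers in MSU_86 was 2.85, the highest of all 24 tumors. The calls among the members, and the results that the removal of MSU_86 moved most, are also given without this tumor.

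Probe sequences are shown for 3 members because they limit what the signal can be assigned to. The Pgk1 probe shares a run of 53 bases with the probe of Gm5537, which RefSeq lists as a pseudogene, and the array file places the Pgk1 probe itself on chromosome 3 (mm9 chr3:57906830-57906894), where Gm5537 lies, and not on X, where RefSeq has Pgk1. The 30 bases of each probe below, read 5′ to 3′, have the first 24 bases of the shared run in capitals.
Pgk1 probe: tcctgtGCTCCTAAGTCAACCTAGTGTTTT
Gm5537 probe: tgcacaGCTCCTAAGTCAACCTAGTGTTTT
The levels of these probes had a Pearson r of 0.97 over the 16 tumors with both, so the signal reported as Pgk1 cannot be split between the gene and its pseudogene. In the same way the Eno1 probe shares 53 bases with the probe of Eno1b, a gene on another chromosome, and the levels had an r of 0.95 over 13 tumors. Ldha had 2 passing probes in its coding sequence, which do not overlap.
Ldha probe with the brighter signal (mm9 chr7:54107294-54107353): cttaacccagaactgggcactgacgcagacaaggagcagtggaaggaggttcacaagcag
Ldha second probe (mm9 chr7:54103010-54103069): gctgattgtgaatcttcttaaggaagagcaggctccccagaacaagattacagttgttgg
These correlated less well (r = 0.56 over 19 tumors), and all Ldha values below are from the brighter probe unless stated.

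The first question was whether the genes differ between early and late tumors. Aldoa was lower in early tumors and Eno1 was higher, each by less than 1 log2 unit, and the other 8 genes did not pass the test. These 2 of 10 compare with 16.3% of the 20878 genes tested (limma, Benjamini-Hochberg adjusted p under 0.05), with 6.38% called as higher and 9.96% as lower in the early ones. At an unadjusted p under 0.05 the members were again Aldoa and Eno1, beside 32.5% of all genes. In all, 1331 genes were higher and 2079 lower, against 4125 and 827 with median centring and 1440 and 920 with the tumor channel alone. The median difference, early minus late, was 0.13 over the 10 genes and -0.05 over all genes. In RNA from whole tumors, fewer cells of a type and less RNA per cell cannot be told apart.

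Aldoa encodes aldolase A, the enzyme that splits the phosphorylated sugar of glycolysis. In the HFD early tumors its level was -1.58 in MSU_768 and -1.87 in MSU_97, with MSU_163 missing because its spot carried an outlier mark. In the HFD-LFD early tumors it was -1.81, -1.89 and -1.73. All 5 early values lay in a narrow band and below every late value. The 4 LFD late tumors were at -1.15, -0.27, -1.15 and -0.27, and the 4 HFD late tumors at -1.10, -0.94, -1.37 and -1.27. The 3 LFD-HFD late tumors were at -1.39, -0.91 and -0.57 and the 2 HFD-LFD late tumors at -0.38 and -1.46. The late tumors thus spread far more than the early ones, from -1.46 to -0.27. Early tumors averaged -1.78 ± 0.12 (SD, n = 5) and late tumors -0.94 ± 0.43 (SD, n = 13), which differ by -0.83 (SE 0.19, adjusted p = 0.0090). Aldoa was the 1 member whose early and late values did not overlap, as was true of 0.905% of all genes. By the exact permutation test over 8568 splits the two-sided p was 0.00093.

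The Aldoa probe (mm9 chr7:133938816-133938875, minus strand) lies in the rows where cyanine 5 was lost on slide 6, and begins, 5′ to 3′, with tattgaagaggggtcttcaggctctttccc. With these 4 spots kept, the difference was 0.20 (adjusted p = 0.90), and with median centring in place of loess, which moves the median of all genes to 0.22, it was -0.18 (adjusted p = 0.63). Within scan session 1 it was -0.79 (adjusted p = 0.13) and within session 2 it was -1.17 (adjusted p = 0.025). Without MSU_86 it was -0.86 (adjusted p = 0.0078).

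Eno1 encodes enolase 1, which forms phosphoenolpyruvate in the lower part of glycolysis. Its level was 1.43, 1.27 and 0.95 in the 3 HFD early tumors and 0.99, 0.49 and 0.82 in the 3 HFD-LFD early tumors. Each of the 4 LFD-HFD late tumors was below 0, at -0.43, -0.92, -0.36 and -0.36. The 6 HFD late tumors ran from -0.71 to 1.45 with a median of 0.51. The 4 LFD late tumors with a value lay at 0.17, 0.89, 0.05 and 0.53, and the 1 HFD-LFD late tumor with a value at 0.52. Early and late tumors overlapped, since MSU_96, an HFD late tumor, had the highest level of all. Early tumors averaged 0.99 ± 0.33 (SD, n = 6) and late tumors 0.15 ± 0.64 (SD, n = 15), which differ by 0.84 (SE 0.27, adjusted p = 0.036, exact permutation p = 0.0079, two-sided). The call was lost, with adjusted p from 0.051 to 0.090, when any 1 of MSU_163, MSU_768, MSU_97, MSU_51, MSU_62b or MSU_45 was left out. Within session 1 the difference was 0.78 (adjusted p = 0.048) and within session 2 it was 0.69 (adjusted p = 0.20). With slide as a random block it was 0.92 (adjusted p = 0.080) and with scan session as a fixed block 0.74 (adjusted p = 0.058), and without MSU_86 it was 0.86 (adjusted p = 0.033).

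**Figure D1:**
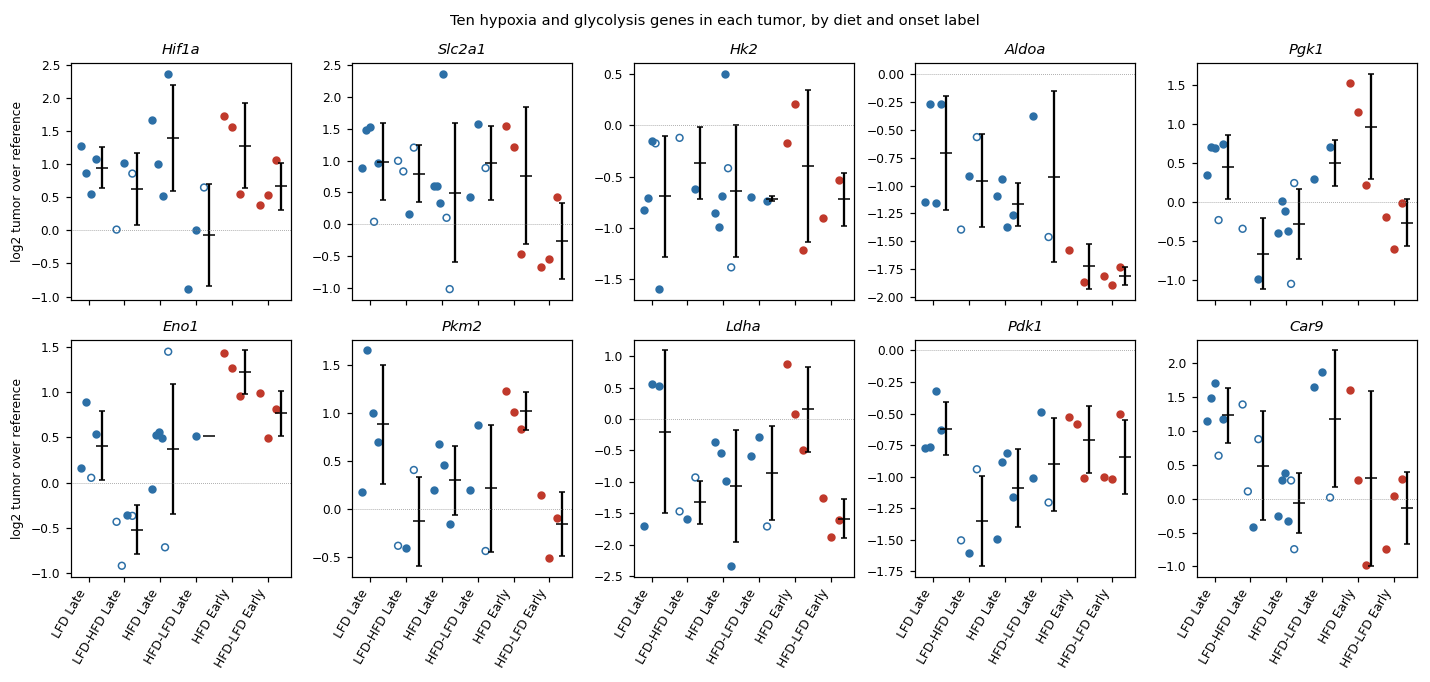
Level of each gene (log2 tumor over reference) in each tumor, by diet and onset label, late tumors in blue and early tumors in red. Open circles are tumors on slides 6 and 7, horizontal bars are group means and vertical lines are ± 1 SD. The 5 early Aldoa values, from -1.89 to -1.58, lie below all late ones, and Eno1 in the 4 LFD-HFD late tumors lies below 0.

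Pgk1 encodes phosphoglycerate kinase 1, the first enzyme of glycolysis to yield ATP. Over all tumors its early minus late difference was 0.33 (SE 0.30, adjusted p = 0.46), but the early tumors of the 2 diets lay apart. These early tumors also differed in slide and scan session, which cannot be told apart from diet. In the HFD early tumors the level was 1.54 in MSU_163, 1.16 in MSU_768 and 0.22 in MSU_97, whereas in the HFD-LFD early tumors it was -0.19, -0.60 and -0.01. The 6 HFD late tumors ran from -1.05 to 0.24 with a median of -0.24, and the 2 HFD-LFD late tumors with a value were at 0.29 and 0.71. So early tumors lay mostly above late ones in HFD, with an overlap of 1 tumor, and below them in HFD-LFD. The share of all genes that separate groups this small was not counted. Pgk1 was the 1 of 10 genes called within HFD, with a difference of 1.25 (SE 0.31, adjusted p = 0.016), where 12% of 20706 genes were called, 5.35% as higher and 6.66% as lower. At an unadjusted p under 0.05 there were 4 (Pgk1, Eno1, Pkm2 and Ldha), beside 29.1% of all genes, and Gm5537 gave 1.08 (SE 0.39, adjusted p = 0.080). Within HFD-LFD it was -0.77 (SE 0.40, adjusted p = 0.38). The difference between these changes was 2.02 (95% interval 0.97 to 3.07, adjusted p = 0.40), and it did not pass the test.

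The Pgk1 call within HFD was lost without MSU_163 (0.97, adjusted p = 0.094) or without MSU_768 (1.16, adjusted p = 0.075), and held without MSU_86 (1.23, adjusted p = 0.027). The 3 HFD early tumors were alone on their slide, so that slide and onset cannot be told apart within HFD and no fit with slide as a fixed block could be had. With slide as a random block the difference was 1.25 (adjusted p = 0.072), and with the spots of lost cyanine 5 kept it was 1.22 (adjusted p = 0.63).

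Pkm2, the pyruvate kinase gene named Pkm in current annotation, and Ldha, which encodes the lactate dehydrogenase subunit that turns pyruvate into lactate, are described together. In the HFD early tumors Pkm2 was at 1.22, 1.01 and 0.83, and in the HFD-LFD early tumors at 0.14, -0.51 and -0.10. The 4 HFD late tumors with a value lay from -0.16 to 0.68 and the 3 HFD-LFD late tumors from -0.44 to 0.88. Pkm2 in each HFD early tumor was thus above every HFD late tumor with a value and every HFD-LFD early tumor. The share of all genes that separate groups this small was not counted. Ldha was at 0.87, 0.07 and -0.49 in the HFD early tumors and at -1.26, -1.88 and -1.61 in the HFD-LFD early tumors. The 4 HFD late tumors ran from -2.34 to -0.37 and the 3 HFD-LFD late tumors from -1.71 to -0.29. The lowest Ldha level of the 19 tumors with a value was that of MSU_86. On the second Ldha probe MSU_86 was at -0.85, and MSU_96 was lowest at -2.16.

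Neither gene was called in any comparison. Early minus late was 0.08 (SE 0.29, adjusted p = 0.88) for Pkm2 and 0.16 (SE 0.43, adjusted p = 0.83) for Ldha. Within HFD the differences were 0.73 (SE 0.34, adjusted p = 0.17) and 1.22 (SE 0.56, adjusted p = 0.16), and within HFD-LFD they were -0.37 (SE 0.37, adjusted p = 0.68) and -0.72 (SE 0.60, adjusted p = 0.61). Without MSU_86 the differences within HFD were 0.58 (adjusted p = 0.31) for Pkm2 and 0.79 (adjusted p = 0.35) for Ldha. The change from late to early thus had opposite signs in these diets for Pgk1, Pkm2 and Ldha. Signs were also opposite, HFD first, for Slc2a1 (0.27 and -1.23), Car9 (0.37 and -1.32), Hk2 (0.25 and -0.0038) and, in reverse, Hif1a (-0.11 and 0.74). Aldoa, Eno1 and Pdk1 kept the same sign. The share of all genes with opposite signs was not counted, and the early tumors of these diets also differed in slide and scan session. The second Ldha probe, with a value on 24 arrays, gave an early mean of -1.08 ± 0.43 (SD, n = 6) and a late mean of -0.97 ± 0.67 (SD, n = 18). Its group order differed from that of the brighter probe, with means of -0.998 ± 0.47 (SD, n = 3) in HFD early, -1.17 ± 0.47 (SD, n = 3) in HFD-LFD early, -0.21 ± 0.57 (SD, n = 3) in HFD-LFD late and -1.24 ± 0.68 (SD, n = 6) in HFD late tumors. The difference between diets had an interval of 0.04 to 2.16 for Pkm2 (adjusted p = 0.63) and 0.19 to 3.69 for Ldha (adjusted p = 0.62). Of 10 genes none passed this test, beside 0.00966% of all genes, and 4 had an unadjusted p under 0.05 (Pgk1, Pkm2, Ldha and Car9) beside 7.93% of all genes.

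Slc2a1 encodes GLUT1, the main glucose transporter of most proliferating cells, and Hk2 encodes hexokinase 2, which traps glucose in the cell by phosphorylating it. Slc2a1 had a value in all 24 tumors, from -1.02 to 2.37. In the early tumors it was 1.54, 1.22 and -0.47 for HFD and -0.67, -0.55 and 0.43 for HFD-LFD. The early mean was 0.25 ± 0.96 (SD, n = 6) and the late mean 0.78 ± 0.75 (SD, n = 18), and the difference of -0.53 (SE 0.36, adjusted p = 0.32) did not pass the test. Hk2 was below the reference in 18 of 20 tumors, averaging -0.53 ± 0.57 (SD, n = 5) when early and -0.63 ± 0.52 (SD, n = 15) when late (difference 0.11, SE 0.26, adjusted p = 0.81). MSU_86 had the highest level of both, 2.37 for Slc2a1 and 0.50 for Hk2.

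Pdk1 encodes pyruvate dehydrogenase kinase 1, which inhibits pyruvate dehydrogenase and so keeps pyruvate from being turned into acetyl-CoA. It had the narrowest spread of the 10 genes, an SD of 0.36 over 20 tumors, and lay below the reference in each of them, from -1.60 to -0.32. The early minus late difference was 0.20 (SE 0.17, adjusted p = 0.44). The highest group mean was that of the LFD late tumors (-0.62 ± 0.21, SD, n = 4) and the lowest that of the LFD-HFD late tumors (-1.35 ± 0.36, SD, n = 3). These groups, picked for their means, did not overlap, and the share of all genes that separate them was not counted. The moderated F test of late tumors by diet did not call Pdk1 (adjusted p = 0.21).

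Car9 encodes carbonic anhydrase 9, a membrane enzyme that takes part in the control of pH and is widely used as a marker of hypoxia. The 5 LFD late tumors were all high, at 1.14, 1.49, 1.71, 0.64 and 1.18. The 6 HFD late tumors lay from -0.75 to 0.37, below all of them, and the share of all genes that separate these groups was not counted. The HFD early tumors spread widely, with 1.61 in MSU_163, 0.28 in MSU_768 and -0.98 in MSU_97, and the HFD-LFD early tumors were at -0.74, 0.03 and 0.30. The HFD-LFD late tumors were at 1.65, 1.87 and 0.02 and the LFD-HFD late tumors at 1.39, 0.11, -0.42 and 0.88. HFD tumors of both onsets (0.05 ± 0.76, SD, n = 9) were 1.18 lower than LFD tumors (1.23 ± 0.41, SD, n = 5), with an SE of 0.34 and an adjusted p of 0.96, which did not pass the test, and without MSU_86 they were 1.13 lower (adjusted p = 0.79). The early minus late difference was -0.54 (SE 0.38, adjusted p = 0.33).

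Hif1a, the alpha subunit itself, was above the reference in most tumors, with an early mean of 0.97 ± 0.57 (SD, n = 6) and a late mean of 0.79 ± 0.78 (SD, n = 14). The difference was 0.18 (SE 0.34, adjusted p = 0.74). The highest level was 2.37 in MSU_86 and the lowest -0.89 in MSU_26, an HFD-LFD late tumor. Its second probe was above the signal minimum in the reference on 11 arrays only and was left out, and correlated with the first at r = 0.61 over 20 tumors.

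**Figure D2:**
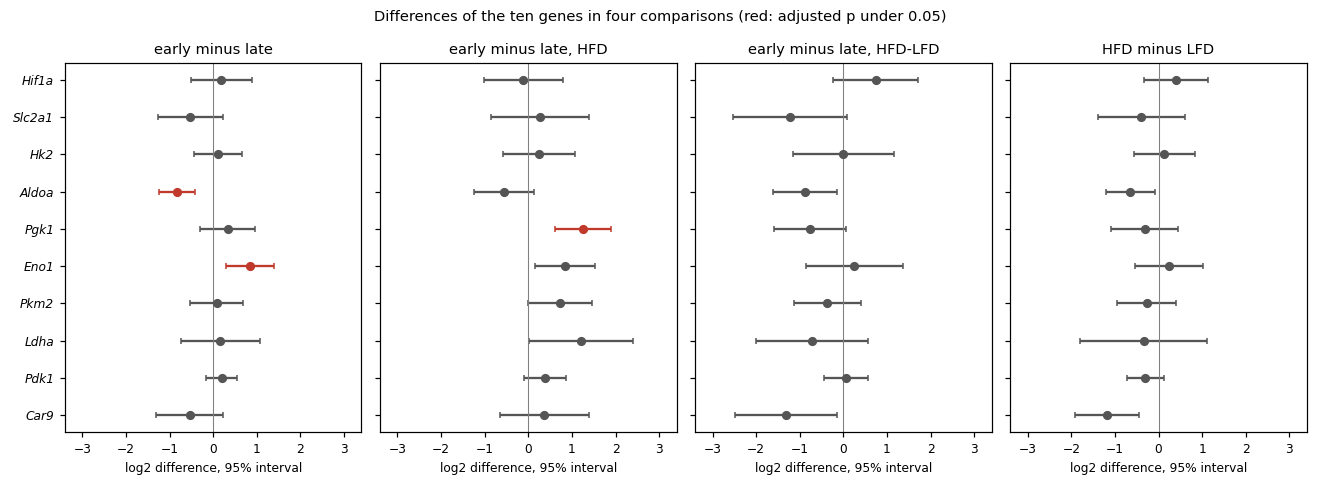
Difference of each gene (log2, horizontal axis) in 4 comparisons, with dots for the limma estimate and lines for the 95% interval, in red where the adjusted p was under 0.05. Aldoa at -0.83 and Eno1 at 0.84 are red in the early against late panel and Pgk1 at 1.25 in the HFD panel, while no gene is red in the other panels.

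Between HFD and LFD, 0 of the 10 genes passed the test with limma, beside 0% of 20872 genes, and at an unadjusted p under 0.05 the genes were Aldoa (-0.64, SE 0.25) and Car9, beside 4.71% of all genes. Within HFD-LFD, 0 of 10 passed, beside 0.763%, and the 2 with an unadjusted p under 0.05 were Aldoa (-0.89, SE 0.34) and Car9 (-1.32, SE 0.56), beside 14.7% of all genes. Among the 18 late tumors, the moderated F test over the 4 diets called 0 of 10, beside 1.82%. At an unadjusted p under 0.05 it held for 5 (Hif1a, Pgk1, Eno1, Pdk1 and Car9), beside 19.9% of all genes. The smallest p of these was that of Pgk1 (adjusted p = 0.12), with a mean of 0.45 ± 0.41 (SD, n = 5) in LFD, -0.28 ± 0.45 (SD, n = 6) in HFD, 0.50 ± 0.29 (SD, n = 2) in HFD-LFD and -0.67 ± 0.45 (SD, n = 2) in LFD-HFD.

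The members were next compared with each other over tumors, with Ldha taken from its brighter probe only. The second Ldha probe, with an r of 0.56 to the brighter probe over 19 tumors, was not compared with the other members. The ties of Ldha given here are thus those of the brighter probe only, and may not hold for the gene. Pkm2 and Ldha rose and fell together most closely, with a Pearson r of 0.90 and a Spearman rho of 0.92 over 19 tumors (permutation p = 1e-05 for each, the smallest that 100000 permutations can give, adjusted p = 0.00045 over the 45 pairs). Pgk1 followed, with r = 0.83 against Pkm2 (17 tumors), 0.79 against Pdk1 (17), 0.78 against Ldha (16) and 0.75 against Eno1 (19). In all, 34 of 45 pairs had a positive r, with a median of 0.39, and 13 pairs passed an adjusted p of 0.05 for both r and rho in the permutation test, all of them positive. The share of pairs among all genes that would pass was not counted, so these counts do not set the members apart from other genes. Without the 2 tumors farthest from the median of the first gene, r was 0.86 for Pkm2 and Ldha and 0.66 to 0.79 for the 4 pairs of Pgk1. In the late tumors alone r was 0.86 for Pkm2 and Ldha (13 tumors), and within scan sessions 1 and 2 it was 0.89 and 0.92 (10 and 6 tumors).

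Car9 was tied less closely to this group, with r from 0.53 to 0.56 against Pgk1, Pkm2 and Ldha, and its r was 0.69 with Aldoa, 0.64 with Pdk1 and 0.59 with Slc2a1. The r of Slc2a1 was 0.44 with Pgk1, 0.37 with Pkm2, 0.28 with Ldha and -0.11 with Eno1, and that of Aldoa was 0.28 with Pgk1, 0.39 with Pkm2, 0.39 with Ldha and -0.24 with Eno1. The r of Hk2 was -0.02 with Pgk1, -0.03 with Pkm2 and -0.01 with Ldha. Several of these rest on MSU_86, and without it the r with Ldha was 0.59 for Slc2a1 (18 tumors) and 0.45 for Hk2 (14 tumors), whereas that of Pkm2 with Ldha was 0.91. The r of Hif1a was between -0.08 and 0.21 with Aldoa, Pgk1, Eno1, Pkm2, Ldha and Pdk1, and none of its 9 pairs passed the adjusted permutation test.

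**Figure D3:**
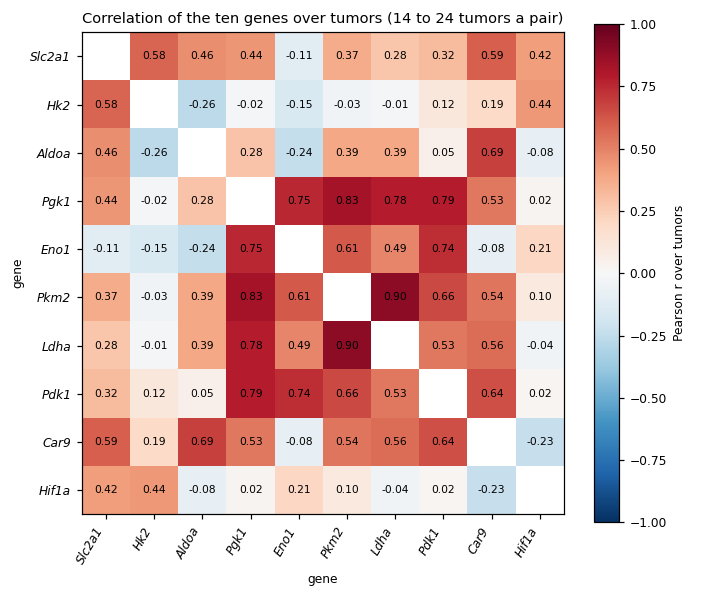
Pearson r between the levels of each pair of genes over the tumors with both values, 14 to 24 a pair, on a color scale from -1 (blue) to 1 (red). Ldha is from its brighter probe. Pgk1, Eno1, Pkm2, Ldha and Pdk1 form a block from 0.49 to 0.90, and the last row, Hif1a, stays between -0.23 and 0.44.

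The genes outside the list whose pattern was most like the mean of the 10 (each standardized over tumors) were named by their r among 20467 genes, as a description. They were Gm5537 (r = 0.90, 19 tumors), a pair of probes with no gene name in the files (r = 0.89 and 0.88), Vegfa (r = 0.88, 23 tumors) and Tpi1 (r = 0.86, 20 tumors). Vegfa encodes vascular endothelial growth factor A, a target of HIF-1, and Tpi1 encodes the glycolytic enzyme triosephosphate isomerase. Neither passed the test for onset: Vegfa averaged 0.43 ± 0.55 (SD) over 6 early tumors and 0.23 ± 0.70 over 17 late ones (difference 0.20, adjusted p = 0.68) and Tpi1 -1.19 ± 0.83 and, over 14 late ones, -1.38 ± 0.75 (difference 0.20, adjusted p = 0.74).

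**Figure D4:**
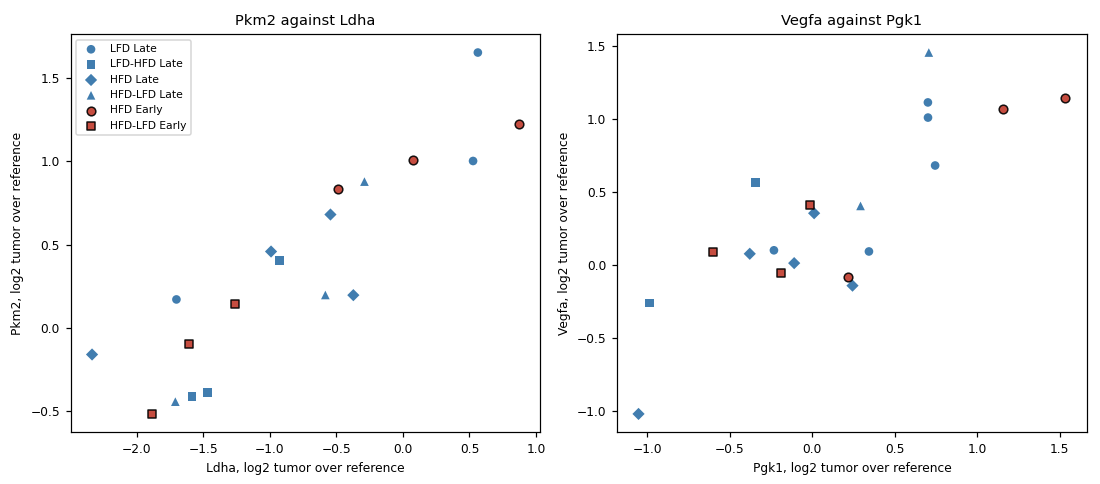
Levels (log2 tumor over reference) of Pkm2 against Ldha and of Vegfa against Pgk1, 1 point per tumor, late tumors in blue and early tumors in red with a black edge. Ldha is from its brighter probe. The HFD early tumors (red circles) lie to the right of the HFD-LFD early tumors (red squares) in both plots. The share of all genes that separate these groups was not counted, and diet cannot be told apart from slide and scan session. On the second Ldha probe they overlap (-1.39 to -0.48 and -1.45 to -0.63). Ldha in 2 of 3 LFD late tumors (blue circles), at 0.56 and 0.53, lies within the range of the HFD early ones, of -0.49 to 0.87.

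Promoters are shown for Pgk1, Pkm2 and Ldha, whose levels moved together, and for the 2 genes called with onset. The letters of the HIF-1 core are in capitals. RefSeq (GRCm38.p6) gave 17 start sites for the 10 genes, and each window of 300 bases (250 before the start, 50 after) was searched for ACGTG and GCGTG on both strands. A CACGTG holds ACGTG on each strand and counts as 2. At least 1 match was found in 14 of the 17 windows (82.4%), against 43.8% of 32851 windows of all genes, and ACGTG alone in 9 (52.9%) against 19.6%. The windows of 1 gene overlap in part and are not independent. The 250 bases before the start, 5′ to 3′ on the strand of the gene, are given for the window of each gene with the most matches, or the first listed where windows tied.
Ldha (chr7:46845554-46845803, plus strand): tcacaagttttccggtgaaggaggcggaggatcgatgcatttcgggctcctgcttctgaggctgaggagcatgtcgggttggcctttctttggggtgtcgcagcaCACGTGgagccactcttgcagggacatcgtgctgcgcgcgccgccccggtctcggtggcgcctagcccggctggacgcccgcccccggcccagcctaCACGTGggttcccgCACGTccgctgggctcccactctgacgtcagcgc
Pkm (chr9:59656977-59657226, plus strand): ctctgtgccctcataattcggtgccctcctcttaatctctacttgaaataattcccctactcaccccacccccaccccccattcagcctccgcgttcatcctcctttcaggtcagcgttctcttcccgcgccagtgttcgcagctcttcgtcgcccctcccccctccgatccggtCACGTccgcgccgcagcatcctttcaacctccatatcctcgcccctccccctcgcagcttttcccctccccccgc
Pgk1 (chrX:106186850-106187099, plus strand): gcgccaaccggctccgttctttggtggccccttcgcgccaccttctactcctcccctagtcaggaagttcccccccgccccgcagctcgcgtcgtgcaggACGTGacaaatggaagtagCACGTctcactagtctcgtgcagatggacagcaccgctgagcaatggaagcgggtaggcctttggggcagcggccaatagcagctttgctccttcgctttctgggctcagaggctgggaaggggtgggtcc
Aldoa (chr7:126799255-126799504, minus strand): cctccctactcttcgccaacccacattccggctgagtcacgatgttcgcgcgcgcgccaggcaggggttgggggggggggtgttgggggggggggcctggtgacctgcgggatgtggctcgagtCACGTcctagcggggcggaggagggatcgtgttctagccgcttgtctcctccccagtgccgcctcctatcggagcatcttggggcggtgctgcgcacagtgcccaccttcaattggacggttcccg
Eno1 (chr4:150236458-150236707, plus strand): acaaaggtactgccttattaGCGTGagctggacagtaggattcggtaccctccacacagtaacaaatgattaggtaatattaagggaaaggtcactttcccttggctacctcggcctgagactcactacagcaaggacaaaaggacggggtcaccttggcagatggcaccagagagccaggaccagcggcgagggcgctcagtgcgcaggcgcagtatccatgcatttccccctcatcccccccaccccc
Ldha held 7 matches in its window, 5 of them before the start, more than any other member, and 4 of these 5 form 2 copies of CACGTG. Pgk1 held 2 matches, Pkm and Eno1 2 each with 1 of them before the start in the window shown, and Aldoa 1. The other Eno1 windows tied with 2 matches each, all of them before the start. Pdk1, which also moved with Pgk1, is not shown. It held 2 matches, both GCGTG, in the window that begins at chr2:71872974 and 0 in that at chr2:71874654. A match is only a run of letters, and no binding was measured here.

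The other genes of glycolysis and of the mitochondrial steps were counted beside the 16.3% of all genes called with onset. Of 21 other glycolytic enzymes, 1 was lower in early tumors, Pfkfb3 (-0.76, SE 0.24, adjusted p = 0.038), which makes the activator of phosphofructokinase, and 0 were higher. Of 10 genes for glucose and lactate transport and Ldhb, 0 were called with limma at the adjusted p and 1 at an unadjusted p under 0.05, and the smallest p was that of Slc16a7, a monocarboxylate transporter (-0.73, SE 0.26, adjusted p = 0.057). Of 13 genes of pyruvate dehydrogenase and its control, 2 were lower, the kinase Pdk2 (-0.47, SE 0.15, adjusted p = 0.029) and the pyruvate carrier subunit Mpc2 (-0.46, SE 0.15, adjusted p = 0.034). Of 16 genes of the tricarboxylic acid cycle 0 were called with limma and 4 had an unadjusted p under 0.05, with Ogdh nearest (-0.46, SE 0.18, adjusted p = 0.088), and of 7 genes of the pentose phosphate pathway 1 was lower, G6pdx, its first enzyme (-1.23, SE 0.29, adjusted p = 0.0088). Leaving out 1 tumor gave 0 to 2 calls among the glycolytic enzymes, 0 to 3 in the pyruvate dehydrogenase list, 0 to 1 in the transport list and in the cycle, and 1 to 2 in the pentose phosphate pathway. The median difference of these lists lay between -0.26 and 0.04, against -0.05 over all genes.

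Of 13 HIF subunits and oxygen sensing genes, 1 was higher and 3 were lower in early tumors, 4 called beside 16.3% of all genes, and leaving out 1 tumor gave 4 to 6. Arnt, the usual partner of Hif1a, differed by -0.02 (adjusted p = 0.94). Arnt2, a beta subunit related to Arnt, averaged 0.63 ± 0.47 over the 6 early tumors and -1.21 ± 0.71 over the 18 late ones (SD, difference 1.84, SE 0.30, adjusted p = 0.00052), and was called within HFD (1.86, SE 0.33, adjusted p = 0.0025) and within HFD-LFD (2.08, SE 0.38, adjusted p = 0.013). Epas1, which encodes HIF-2 alpha, averaged -1.71 ± 0.27 (SD) over 6 early tumors and -0.27 ± 0.84 over 17 late ones (difference -1.44, SE 0.34, adjusted p = 0.0070). Cited2, which competes with HIF for its coactivator, differed by -1.59 (SE 0.27, adjusted p = 0.00086) and Os9 by -0.52 (SE 0.13, adjusted p = 0.0083). Without MSU_86 the difference of Arnt2 within HFD was 1.83 (adjusted p = 0.0049), and that of Cited2 within HFD went from -1.34 (adjusted p = 0.045) to -1.30 (adjusted p = 0.068).

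Other HIF target genes went in both directions. Of 30 tested, 2 were higher in early tumors and 2 were lower, 4 called beside 16.3% of all genes, and leaving out 1 tumor gave 1 to 5 (1 without MSU_62b or MSU_97, and 2 without MSU_105, MSU_42, MSU_45, MSU_51, MSU_54, MSU_62a or MSU_768). Plod2, a collagen-modifying enzyme, averaged 0.86 ± 0.41 (SD) over 6 early tumors and -0.57 ± 0.40 over 14 late ones (difference 1.44, SE 0.19, adjusted p = 0.00023) and Ccng2 was 0.52 higher (SE 0.18, adjusted p = 0.048). Stc2, which encodes the secreted protein stanniocalcin 2, averaged 0.50 ± 0.82 (SD) over 6 early tumors and 2.63 ± 1.61 over 18 late ones (difference -2.13, SE 0.66, adjusted p = 0.030), and Pfkfb3 was the other lower gene. Within HFD, 4 of 30 were higher in early tumors and 0 were lower, namely Plod2 (1.73, adjusted p = 0.0036), Ankrd37 (1.69, adjusted p = 0.016), Ero1a (2.06, adjusted p = 0.021) and Bhlhe40 (0.97, adjusted p = 0.036, and 0.88, adjusted p = 0.063, without MSU_86), where 5.35% of all genes were higher, all but Plod2 named after their values were seen, and within HFD-LFD 0 of 30 were called with limma and 7 had an unadjusted p under 0.05. Their median difference was 0.39 within HFD and -0.35 within HFD-LFD, and that of the 10 members was 0.38 and -0.55, against -0.09 and -0.06 over all genes. The difference between the diets was not tested for these medians.

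Markers of cell state and of other cells also differed with onset, and their part in the results above was not tested. Of 12 proliferation markers, 7 were higher in early tumors (2 without MSU_163, 4 without MSU_62b and up to 10 when another tumor was left out), with Top2a at 1.19 (SE 0.24, adjusted p = 0.0032), Tyms at 0.69 (SE 0.16, adjusted p = 0.0078), Ccnb1 at 0.97 (SE 0.27, adjusted p = 0.018) and Bub1 at 0.89 (SE 0.25, adjusted p = 0.018). The mean level of the list ran from 0.17 to 0.95 over the early and from -1.07 to 1.05 over the late tumors. Of 9 luminal markers, 4 were lower (8 without MSU_86, and 2 without any 1 of MSU_34, MSU_45, MSU_51, MSU_54, MSU_62b, MSU_67, MSU_768 or MSU_97), Gata3 (-2.15, SE 0.32, adjusted p = 0.00039), Prlr (-4.23, SE 0.78, adjusted p = 0.0017), Esr1 (-1.34, SE 0.44, adjusted p = 0.038) and Foxa1 (-3.26, adjusted p = 0.045). The list mean ran from -0.11 to 2.42 in early and from -1.50 to 3.90 in late tumors. Of 12 squamous markers 0 were called with limma and 4 had an unadjusted p under 0.05, the smallest p being that of Dsg3 (1.05, SE 0.37, adjusted p = 0.058). Without MSU_86, 4 squamous markers were higher (Dsg3, Ivl, Krt10 and Sprr1a), with Dsg3 at 1.19 (adjusted p = 0.014), and the keratins Krt8, Krt18 and Krt19 were among the luminal markers that were lower. Without MSU_137, MSU_59b, MSU_163, MSU_26 or MSU_96 the squamous count was 3, 2, 1, 1 and 1.

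Of 12 skeletal muscle markers 1 was lower, Mb (-1.50, SE 0.50, adjusted p = 0.041), of 9 endothelial markers 2, Vwf (-2.65, SE 0.62, adjusted p = 0.0069) and Esam (-0.83, SE 0.26, adjusted p = 0.036), and of 8 fibroblast markers 1, Dcn (-2.45, SE 0.58, adjusted p = 0.0094). The muscle list, whose cells are rich in aldolase A, had a mean level from -5.62 to -2.63 over early and from -5.03 to -1.38 over late tumors. The highest muscle levels were in MSU_122a (-1.38) and MSU_26 (-1.55), which were also among the 3 tumors with the highest Aldoa (-0.27 and -0.38), while MSU_34, with Aldoa at -0.27, had a muscle level of -4.35. MSU_163, the early tumor with the highest muscle level, has no Aldoa value. The part of muscle in the Aldoa difference was not tested. Of 8 adipocyte, 9 macrophage and 3 erythrocyte markers 0 were called with limma, 0, 1 and 2 of them had an unadjusted p under 0.05, and the genes with the smallest p were Plin4 (-1.15, SE 0.58, adjusted p = 0.17), Cd14 (-1.20, SE 0.43, adjusted p = 0.057) and Slc4a1 (-0.56, SE 0.21, adjusted p = 0.067).

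The members also set single tumors apart. Within the HFD early group MSU_163 had the highest level of Hif1a, Slc2a1, Pgk1, Eno1, Pkm2, Ldha, Pdk1 and Car9, and MSU_97 the lowest of all these genes. Hk2 was highest in MSU_768 (0.21, against -0.17 in MSU_163), and MSU_163 has no Aldoa value. The share of all genes with this order was not counted, and many of these members vary together. The mean of the standardized members was 1.39 in MSU_163, 0.81 in MSU_768 and -0.42 in MSU_97, whereas it was -0.84 to -0.12 in the HFD-LFD early tumors. The LFD late tumors ran from -0.15 to 0.94 and the LFD-HFD late tumors from -0.92 to 0.13. Over all 18 late tumors they ran from -0.92 to 0.94. Among the tumors with a value, MSU_86 combined the highest levels of Hif1a, Slc2a1 and Hk2 with the lowest level of the brighter Ldha probe. The second Ldha probe did not share this, with MSU_86 at -0.85 and the lowest level, -2.16, in MSU_96.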

How the data were processed

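Tumor RNA and a common reference were hybridized to Agilent 2-color 4x44K arrays. The deposited scanner files hold, for each spot, the intensity of each channel with its background, and the log10 ratio of the channels as the authors' software gave it. The file headers name Feature Extraction 11.0.1.1 and the submitters' processing notes 8.5.1.1. From the intensities, background was corrected by normexp (offset 50), spots marked as outliers were set missing, and each array was normalized by loess (span 0.3) in limma 3.58.1 (R 4.3.3). Bands of 10 rows whose median log2 ratio lay over 0.4 below that of the array were set missing. This minimum was chosen after seeing the band profiles, and it departs from the study's methods, which impute missing values. Genes were represented by their brightest probe with signal over 10 in both channels on 80% of arrays. Groups came from the labels. Fits used limma with Benjamini-Hochberg adjustment over all genes and a threshold of 0.05, without a batch term. Exact or 100000-fold permutation tests were run with NumPy 2.4.6, with ranks from SciPy 1.17.1. Fits dropped missing values. Fits with a fixed block kept the comparisons and genes that the design could estimate. The genes named are the members, up to 4 genes a list with the smallest adjusted p under 0.05 in early against late (or the 1 with the smallest p), and the 5 genes most like the mean of the members over at least 17 arrays. Members and lists were chosen with earlier results of these data known. The alternatives tried were other normalizations, filters, batch terms and leaving out each array. Replicates were numbered in accession order, and 0 columns of other samples were present. Array number limits the precision.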

Additional observations from a re-analysis of the deposited data

Results flagged for a closer look

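In the 4 LFD-HFD late tumors, the Eno1 level of MSU_42 was -0.92, the lowest of the group, and stood apart from the nearest other tumor at -0.43 (the gap was 0.873 of the range of the group). It was the 1 such tumor found in 22 sets of 4 to 6 tumors, each 1 gene in 1 group, and chance alone gives about 1 in 20 groups. MSU_42 lies on slide 7, where cyanine 5 was lost in part of the array.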

How the results depend on the processing

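The count of members called between early and late tumors, 2 as reported, was 1 with the spots of lost cyanine 5 kept (Eno1), with these kept and missing values imputed (Eno1), with the log ratio of the scanner software (Aldoa), with the tumor channel alone (Eno1), with slide as a random block (Aldoa), with scan session as a fixed block (Aldoa), within session 1 (Eno1) and within session 2 (Aldoa). It was 0 with slide as a fixed block, which rests on the 1 slide that holds both onsets (3 early tumors and 1 late tumor), with the mean of the changes within HFD and HFD-LFD, with the 3 early HFD and with the 3 early HFD-LFD tumors alone. Within HFD the count of 1 was 0 with lost spots kept, with these imputed, and with slide as a random block, 2 with array weights and without slides 6 and 7, and 4 with median centring and at an unadjusted p under 0.05. Within HFD-LFD the count of 0 was 1 with session as a block, and 2 with array weights and at the unadjusted p. For the difference between the diets it was 1 with array weights and 4 at the unadjusted p, among late tumors by diet 2 and 5, and between HFD and LFD 2 at the unadjusted p. Leaving out 1 tumor gave 1 to 2 members between early and late, 0 to 2 within HFD and 0 elsewhere. The number of all genes called between early and late, 3410 as reported, was 2133 with lost spots kept, 1511 with slide as a random block, 72 with it as a fixed block (with the limit given above), 1321 and 2199 within sessions 1 and 2, and 921 with the 3 early HFD-LFD tumors. The causes were not tested.

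Some differences turned direction. With lost spots kept Aldoa was 0.20, and 0.21 when these were imputed, and the difference of Pgk1 between the diets was -0.47 in both. With slide as a fixed block, resting on 1 late tumor as above, Hif1a was -0.36, Hk2 -0.10 and Car9 0.29. The changes within HFD and their difference between the diets could not be estimated with this block, since the 3 early HFD tumors fill a slide of their own. With array weights Pgk1 was -0.014, Pkm2 -0.27 and Ldha -0.39, and without slides 6 and 7 Pkm2 was -0.055. Within session 2 Hk2 was -0.037, Pgk1 -0.27, Pkm2 -0.38 and Ldha -0.77. With the 3 early HFD-LFD tumors Hif1a was -0.12, Hk2 -0.091, Pgk1 -0.28, Pkm2 -0.51 and Ldha -0.71. Without MSU_163 Pkm2 was -0.079 and Ldha -0.15, without MSU_768 Hk2 was -0.078 and Pkm2 -0.036, and without MSU_97 Pkm2 was -0.00013. With the scanner's log ratio and its marked spots kept, an alternative chosen after seeing the data, Ldha was -0.66 (adjusted p = 0.034), from another probe. Over all tumors left out in turn, Hk2 ran from -0.078 to 0.28, Pkm2 from -0.079 to 0.27 and Ldha from -0.15 to 0.40. No paired analysis was possible because the labels give no replicate numbers that pair tumors.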
